A study of Homo sapiens with 6 samples.

Results

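The genes described here encode the EGF receptor family (EGFR, ERBB2, ERBB3 and ERBB4), 4 of its ligands (HBEGF, AREG, EREG and TGFA) and a pair of proteins that restrain the receptors (ERRFI1 and LRIG1). They were measured in DMS-53, an established human small cell lung cancer line, grown for 24 h in RPMI medium alone (control), with 250 µM DFO or with 25 µM Dp44mT. DFO (desferrioxamine) is an iron-binding siderophore that enters cells poorly, whereas Dp44mT, a thiosemicarbazone, crosses membranes readily and takes up copper as well as iron. Total RNA was hybridized to 6 Affymetrix U133 Plus 2.0 arrays, 2 per group, numbered set 1 and set 2 as in the sample titles. The samples are of 1 cell line without a genetic change, and the chelators were given at different doses. Whether the arrays of a group stand for separate cultures is not given in the labels, and the p-values refer to the scatter between 2 arrays of a group, part or all of which may be technical.

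Members were all probe sets, the groups of short probes that together measure a transcript, whose platform annotation gives exactly one of these symbols. Of the 10 genes, 9 had a matched probe set, with 35 probe sets of the 54675 on the array. AREG was not analysed here. EGFR had 9 probe sets, ERBB2 3, ERBB3 5, ERBB4 4, HBEGF 4, EREG 2, TGFA 3, ERRFI1 1 and LRIG1 4. A probe set was tested where its mean over the arrays reached a normalized log2 level of 5.55, the 25th percentile over the array, which 23 of the 35 did. The 12 below it were 3 of ERBB4, 2 each of ERBB2 and LRIG1, and 1 each of EGFR, ERBB3, HBEGF, EREG and TGFA. They are given by their values alone.

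EGFR-family receptors are membrane tyrosine kinases that pair when a ligand binds and pass the signal on through the RAS to ERK and the PI3K routes. ERBB2 has no known ligand, ERBB3 has little kinase activity of its own, and both work mainly as partners of the other receptors. HBEGF, AREG, EREG and TGFA are made as membrane proteins and released by ADAM proteases. Negative feedback acts at several levels. ERRFI1 (also called MIG6) binds the kinase domain and blocks it, LRIG1 promotes receptor degradation, and Sprouty, SPRED and DUSP proteins act further down, on RAS and ERK. Small cell lung cancer cells are neuroendocrine and commonly make little EGFR.

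The line's identity was checked against marker genes. All 11 matched neuroendocrine markers and all 4 epithelial ones lay above the test limit, with DDC at a deposited intensity of 5095 and 5476 in the controls and EPCAM at 7030 and 7637. So did 8 of 10 fibroblast, 4 of 6 endothelial and 3 of 4 leukocyte markers, so passing the limit does not tell cell types apart. The median normalized log2 level in the controls was 10.5 and 10.5 for neuroendocrine and 12.3 and 12.4 for epithelial markers, and at most 7.21 for the other lists. The deposited array medians were 88.9 and 88.8 in control, 85.5 and 63.0 in DFO, and 83.6 and 49.9 in Dp44mT, so the set 2 chelator arrays were dimmer than the rest. Because of this, values were quantile normalized as log2(intensity + 16) for the tests, and deposited intensities are given beside them. Fold changes are on that log2(intensity + 16) scale, which understates changes of dim probe sets.

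Across the receptor, ligand and feedback genes, the feedback inhibitor ERRFI1 rose 5.93-fold with DFO and 6.21-fold with Dp44mT. The ligand HBEGF passed the test with Dp44mT on 1 of its 3 tested probe sets, 203821_at, where it rose 8.28-fold. HBEGF 38037_at was 5.04-fold higher with Dp44mT, and 203821_at and 38037_at were 4.79-fold and 2.92-fold higher with DFO, without passing. The third, 244857_at, differed little. No receptor probe set passed the test in any comparison. In limma's moderated test with Benjamini-Hochberg adjustment over all 40950 tested probe sets, 1 of the 23 member probe sets was called higher and 0 lower with DFO at an adjusted p under 0.05. Over all tested probe sets, 0.569% were called higher and 0.0195% lower with DFO. With Dp44mT, 2 of 23 were called higher and 0 lower, where 1.07% of all tested probe sets were called higher and 0.564% lower. At an unadjusted p under 0.05, 4 members differed with DFO and 7 with Dp44mT, against 4528 and 8817 of all tested. With any 1 of the 4 arrays of a comparison left out, 0 of all tested probe sets were called in limma, while between 1639 and 5638 with DFO and between 3457 and 12723 with Dp44mT had an unadjusted p under 0.05. With single arrays left out, the log2 difference of ERRFI1 moved little, from 2.49 to 2.63 with DFO and from 2.46 to 2.81 with Dp44mT. That of EGFR 1565483_at ran from 0.69 to 2.70 with DFO, and the differences of some other members changed sign. Without both set 2 chelator arrays, which leaves 1 array per chelator, the log2 differences with DFO were 2.555 for ERRFI1 and 2.11 for HBEGF 203821_at.

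Both chelator arrays lay above both control arrays, after normalization, for 8 members with DFO and 8 with Dp44mT. Such separation upwards was found for 17.0% and 28.5% of all tested probe sets. Separation downwards was found for 6 and 5 members, and for 27.8% and 32.8% of all. The median log2 difference of the tested member probe sets, of which 8 were of EGFR, was 0.25 with DFO and 0.30 with Dp44mT. Over all tested probe sets it was -0.04 and 0.01. On the deposited scale the corresponding members' medians were 0.05 and -0.15, with the median of all tested probe sets at -0.30 and -0.46. With a single probe set for each of 9 member genes, the normalized medians were 0.09 and -0.07, against -0.04 and 0.03 over all genes. With a gene's probe sets averaged, which left 6 member genes, they were 0.36 and 0.32, against -0.04 and -0.01. The members' median, and its sign with Dp44mT, therefore depended on how the probe sets of a gene were counted. The comparisons with DFO and with Dp44mT share the same 2 control arrays.

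**Figure D1:**
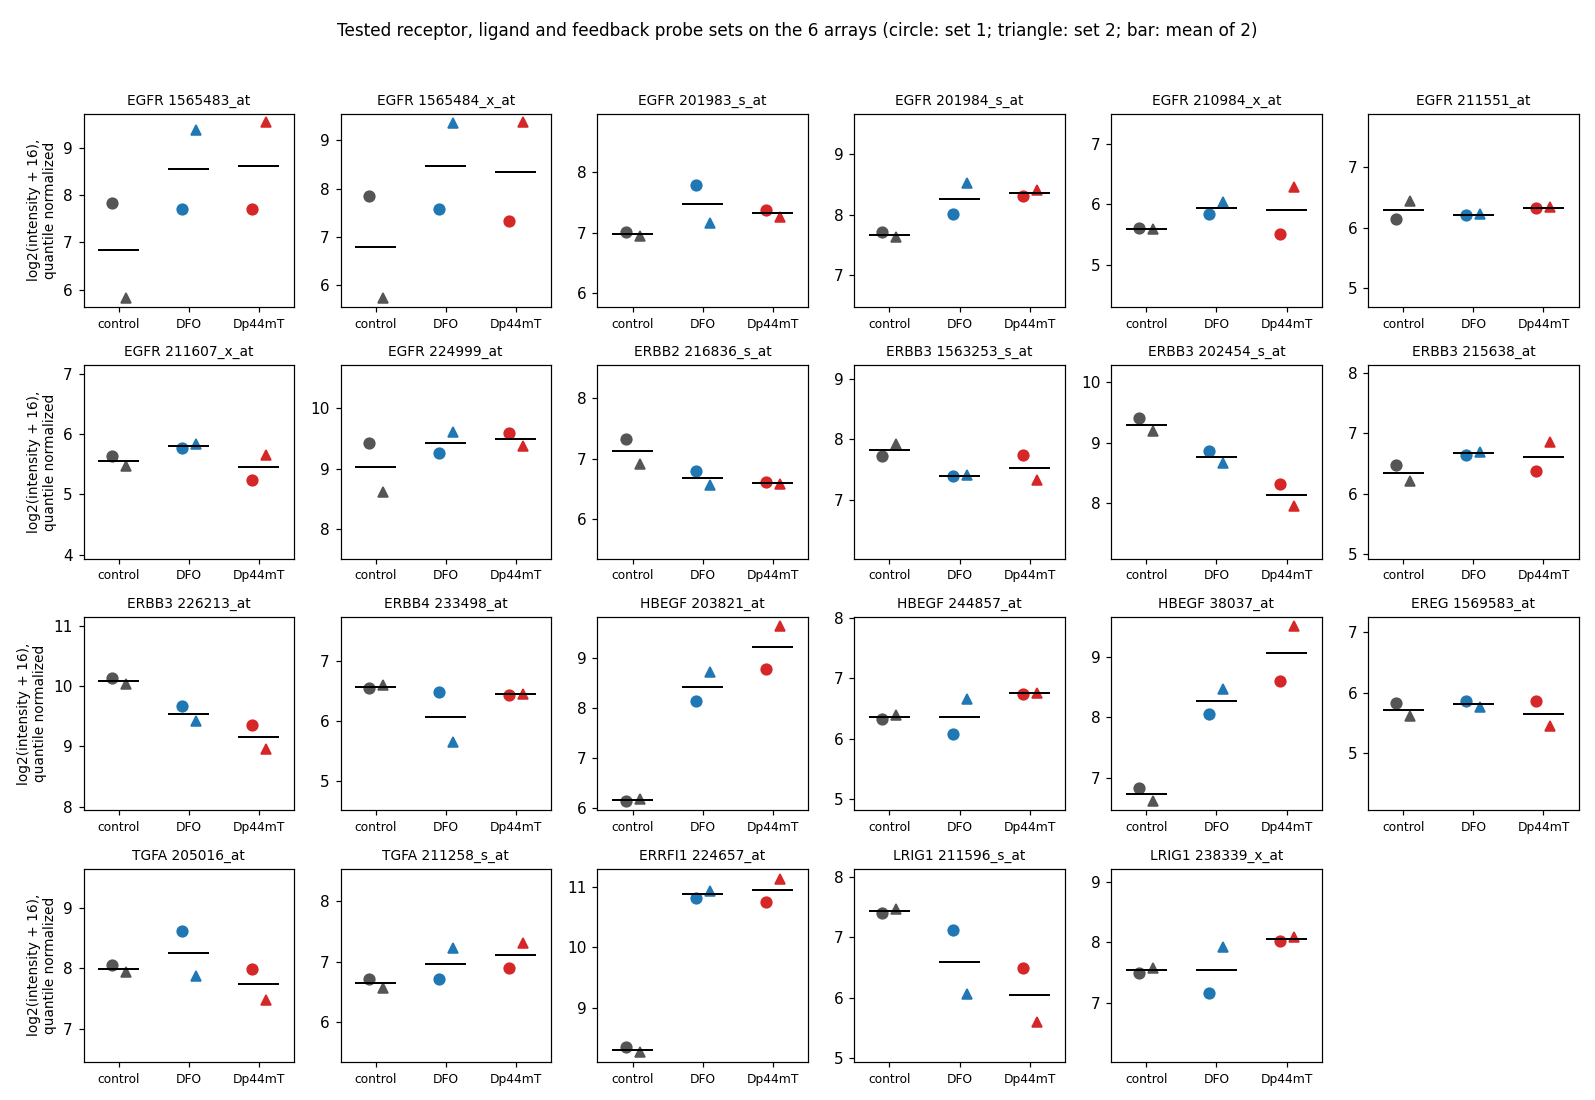
Normalized log2 level (vertical axis, log2(intensity + 16)) of the 23 tested member probe sets on the 6 arrays, with circles for set 1, triangles for set 2 and a bar for the mean of 2 arrays. ERRFI1, HBEGF 203821_at and HBEGF 38037_at lie above the controls on all 4 chelator arrays, while EGFR 1565483_at and 1565484_x_at lie above both controls only on the set 2 chelator arrays.

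The upstream sequences of ERRFI1 and HBEGF, the genes that passed the test, are shown so that their base composition and known promoter elements can be read beside the values. Both are from RefSeq on GRCh38.p14, run 5′ to 3′ on the gene's minus strand and cover the 250 bases before the gene's start. Capitals mark matches to the motifs TATANA (TATA box), GGGCGG (GC box) and CCAAT on either strand. ERRFI1 lies at chr1:8026310-8026559 and HBEGF at chr5:140346604-140346853.
ERRFI1: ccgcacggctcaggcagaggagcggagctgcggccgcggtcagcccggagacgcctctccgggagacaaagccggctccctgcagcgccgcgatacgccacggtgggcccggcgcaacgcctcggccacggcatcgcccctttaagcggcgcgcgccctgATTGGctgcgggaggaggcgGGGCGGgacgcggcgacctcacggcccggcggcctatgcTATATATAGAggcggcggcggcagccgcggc
HBEGF: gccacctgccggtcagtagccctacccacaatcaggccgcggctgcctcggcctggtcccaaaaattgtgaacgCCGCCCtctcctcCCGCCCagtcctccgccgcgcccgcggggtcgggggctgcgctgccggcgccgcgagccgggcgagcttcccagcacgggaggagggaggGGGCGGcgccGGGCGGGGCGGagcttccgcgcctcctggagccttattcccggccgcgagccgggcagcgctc
Guanine and cytosine made up 75.2% of the ERRFI1 window and 76.4% of the HBEGF window.

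In the ERRFI1 window TATANA matched at 3 overlapping positions, the first 31 and the last 22 bases before the start. A single GGGCGG lay 70 to 65 bases before the start, and CCAAT, printed as its complement ATTGG, 90 to 86 bases before it. The HBEGF window held 5 matches to GGGCGG, of which 2 were on the opposite strand and 2 shared a base, and neither TATANA nor CCAAT. Among 35116 promoter windows of 250 bases, 17.7% held TATANA, 42.6% GGGCGG and 32.0% CCAAT. These 3 motifs were chosen after the first search and after the letters had been read.

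The first search used motifs of factors that respond to hypoxia or to growth factor signals, on both strands. They were ACGTG and GCGTG (hypoxia response), TGANTCA (AP-1), TGACGTCA (CRE) and the CArG box of serum response factor. None of them matched in either window. Among all windows, 18.5% held ACGTG, 32.2% GCGTG, 6.57% TGANTCA, 1.65% TGACGTCA and 1.16% a CArG box. A missing match says only that these letters are not in these 250 bases.

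ERRFI1, measured by 1 probe set (224657_at), had deposited intensities of 379 and 379 in control, 2414 and 1347 in DFO, and 1934 and 1213 in Dp44mT. All 4 chelator arrays lay above both controls by a wide margin, on the deposited and the normalized scale. The normalized log2 levels were 8.30 ± 0.05 in control, 10.87 ± 0.09 in DFO and 10.94 ± 0.28 in Dp44mT (SD, n = 2). ERRFI1 rose 5.93-fold with DFO, a log2 difference of 2.57 (SE 0.22, adjusted p = 0.0196 in limma), and 6.21-fold with Dp44mT, a log2 difference of 2.63 (SE 0.22, adjusted p = 0.0154 in limma). Within set 1 alone the log2 differences were 2.47 and 2.40, and within set 2 they were 2.67 and 2.86.

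Between the chelators ERRFI1 did not pass the test. The log2 difference of Dp44mT from DFO was 0.07, with a 95% interval from -0.48 to 0.61. Over all alternatives, leaving out single arrays included, its log2 difference stayed between 2.20 and 2.63 for DFO and between 1.97 and 2.81 for Dp44mT. With no scaling between arrays the differences were 2.20 and 1.97 and neither was called.

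LRIG1, the other restraint on the receptors, was not called in either comparison. Its probe set 211596_s_at had deposited intensities of 189 and 198 in control, 151 and 43.8 in DFO, and 82.1 and 22.0 in Dp44mT. The chelator arrays lay below both controls, furthest in set 2. The log2 differences of -0.85 with DFO (95% interval -1.98 to 0.28) and -1.39 with Dp44mT (-2.52 to -0.26) were not called, at adjusted p = 0.589 and 0.169 in limma. The other tested LRIG1 probe set, 238339_x_at, read 202 and 217 in control, 155 and 171 in DFO, and 261 and 147 in Dp44mT. Its log2 differences were 0.00 and 0.52, so the gene's probe sets disagreed in direction with Dp44mT. The suffix _x_at marks probe sets of which some probes may also bind other transcripts, and _s_at those that several transcripts share. The LRIG1 probe sets below the limit, 236173_s_at and 240140_s_at, had deposited intensities between 0.00334 and 41.2.

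HBEGF, heparin-binding EGF-like growth factor, had the largest differences from control among the member ligands. Probe set 203821_at read 62.9 and 67.4 in control, 359 and 296 in DFO, and 462 and 428 in Dp44mT. The groups did not overlap, and both Dp44mT arrays lay above both DFO arrays. HBEGF rose 8.28-fold with Dp44mT on this probe set, a log2 difference of 3.05 (SE 0.36, adjusted p = 0.0311 in limma). With DFO the log2 difference was 2.26 (SE 0.36, 95% interval 1.36 to 3.16), which missed the threshold at adjusted p = 0.0863 in limma.

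A second HBEGF probe set, 38037_at, gave 118 and 96.5 in control, 337 and 251 in DFO, and 401 and 390 in Dp44mT. The order of the groups was the same, and no groups overlapped. The log2 differences were 1.55 with DFO (95% interval 0.65 to 2.44, adjusted p = 0.213 in limma) and 2.33 with Dp44mT (1.44 to 3.23, adjusted p = 0.0506 in limma), neither of which passed, although the Dp44mT difference was called under 9 of 19 alternatives. The Dp44mT against DFO differences were 0.79 on both probe sets, with 95% intervals from -0.11 to 1.69 on 203821_at and from -0.10 to 1.68 on 38037_at. Both intervals include 0.

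The remaining HBEGF probe sets did not follow these. Probe set 244857_at read 74.5 and 80.3 in control, 56.2 and 70.4 in DFO, and 101 and 60.1 in Dp44mT, with log2 differences of 0.01 and 0.40. Probe set 222076_at was below the test limit, at 19.9 to 24.5 on all arrays. The Dp44mT call on 203821_at was lost with no scaling between arrays, at a log2 difference of 2.51, and when a control or Dp44mT array was left out, where single omissions gave 2.70 to 3.48. Without both set 2 chelator arrays, which leaves 1 array per chelator, the log2 differences with DFO were 2.11 on 203821_at and 1.43 on 38037_at.

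TGFA, which signals through EGFR, had tested probe sets that did not pass. Probe set 205016_at read 306 and 289 in control, 521 and 165 in DFO, and 256 and 98.0 in Dp44mT, with log2 differences of 0.25 (95% interval -0.57 to 1.07) and -0.26 (-1.08 to 0.56). The DFO arrays lay on opposite sides of the controls on the deposited scale. Probe set 211258_s_at read 107 and 93.7 in control, 103 and 105 in DFO, and 113 and 88.1 in Dp44mT, with log2 differences of 0.32 and 0.46. Below the limit, 205015_s_at read 32.8 and 39.7 in control, 41.3 and 13.8 in DFO, and 44.7 and 12.3 in Dp44mT. EREG, epiregulin, was dim throughout: its tested probe set 1569583_at read 46.7 and 38.7 in control, 45.5 and 33.6 in DFO, and 47.5 and 18.6 in Dp44mT, and 205767_at stayed between 7.28 and 14.8. The EREG log2 differences were 0.09 and -0.07, with 95% intervals from -0.48 to 0.66 and from -0.64 to 0.50.

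**Figure D2:**
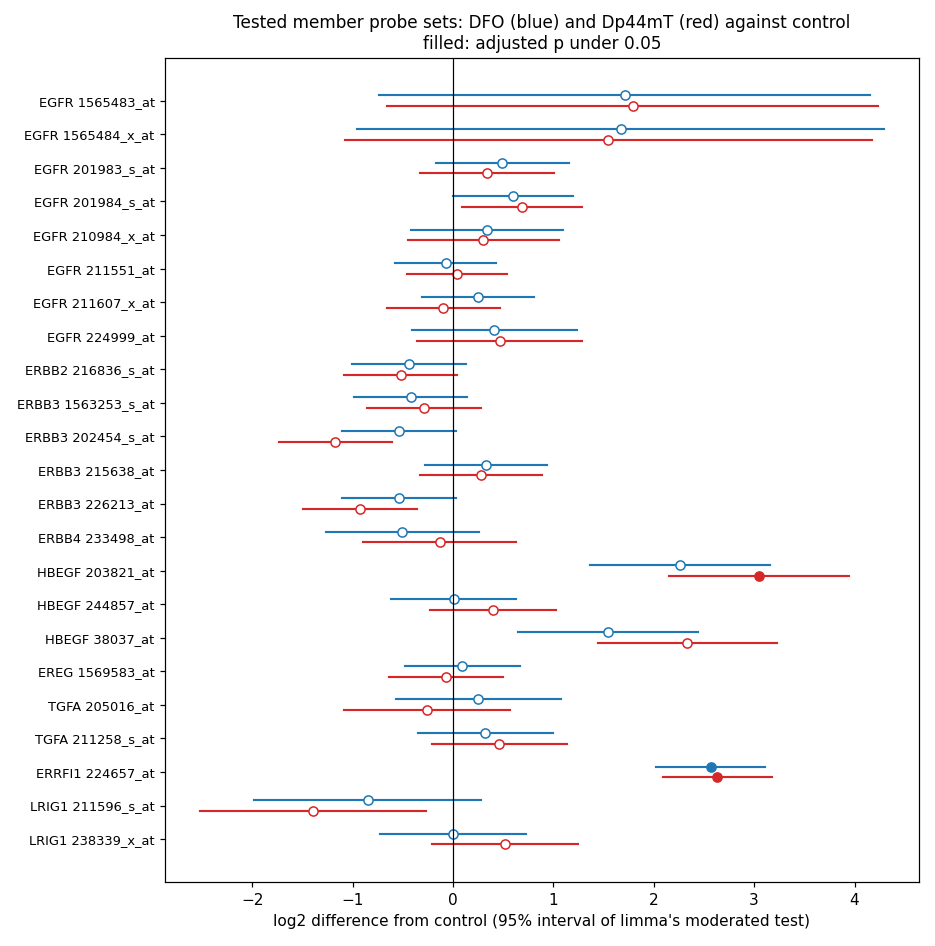
Log2 difference from control (horizontal axis, with 95% intervals of limma's moderated test) for the 23 tested member probe sets, DFO in blue and Dp44mT in red, filled where the adjusted p is under 0.05. The filled points are ERRFI1 at 2.57 and 2.63 and HBEGF 203821_at at 3.05, and the ERBB3 and LRIG1 points furthest to the left, at -1.17 and -1.39, are not called.

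ERBB3, the kinase-impaired receptor for neuregulins, had the receptor probe sets with the smallest p. Probe set 202454_s_at read 794 and 782 in control, 617 and 287 in DFO, and 325 and 134 in Dp44mT. Every chelator array lay below both controls, and on the normalized scale both Dp44mT arrays also lay below both DFO arrays. The log2 difference with Dp44mT was -1.17 (SE 0.23, 95% interval -1.74 to -0.60), a 2.25-fold lower level that missed the threshold at adjusted p = 0.0750 in limma. With DFO it was -0.54 (95% interval -1.10 to 0.03, adjusted p = 0.479 in limma).

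Probe set 226213_at of ERBB3 read 1277 and 1479 in control, 1100 and 482 in DFO, and 699 and 264 in Dp44mT. On the normalized scale the arrays lay in the same order as on 202454_s_at, without a call: the log2 differences were -0.54 with DFO and -0.93 with Dp44mT (95% interval -1.49 to -0.36, adjusted p = 0.111 in limma). Within set 1 the Dp44mT differences of these probe sets were -1.10 and -0.78, and within set 2 -1.24 and -1.07. The difference of Dp44mT from DFO on 202454_s_at was -0.63 (95% interval -1.20 to -0.07), the 1 member of 23 with an unadjusted p under 0.05 in that comparison, against 1347 of all tested probe sets. It was not called, at adjusted p = 0.969 in limma, nor was any of the 40950, so percent called was 0.

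Other ERBB3 probe sets gave smaller or opposite differences. Probe set 1563253_s_at read 240 and 286 in control, 190 and 121 in DFO, and 214 and 89.1 in Dp44mT, with log2 differences of -0.42 and -0.29. Probe set 215638_at read between 64.1 and 97.2 on all arrays, with log2 differences of 0.33 and 0.28, and 1563252_at, below the limit, between 2.38 and 48.5. With limma's trended and robust variance prior, 202454_s_at and 226213_at were both called lower with Dp44mT.

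ERBB2, the ligandless partner receptor, had 1 tested probe set. On 216836_s_at the deposited intensities were 177 and 126 in control, 111 and 65.9 in DFO, and 90.5 and 52.9 in Dp44mT. Chelator arrays lay below both controls, but the controls themselves were apart. The log2 differences of -0.44 (95% interval -1.01 to 0.13) and -0.52 (-1.09 to 0.04) did not pass, at adjusted p = 0.573 and 0.260 in limma. The ERBB2 probe sets below the limit read between 0.0480 and 39.0.

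ERBB4, another neuregulin receptor, had 1 tested probe set of 4. Probe set 233498_at read 91.8 and 94.97 in control, 82.8 and 30.2 in DFO, and 77.9 and 47.6 in Dp44mT, with log2 differences of -0.50 and -0.13. Of the untested ones, 206794_at and 214053_at stayed between 4.89 and 31.3. Probe set 233494_at read 15.5 and 6.70 in control, 4.81 and 64.01 in DFO, and 10.3 and 88.1 in Dp44mT, so only the set 2 chelator arrays were high.

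EGFR, the receptor for HBEGF, AREG, EREG and TGFA, was detected on several probe sets, and none of the 8 tested was called. The probe set with the highest mean, 224999_at, read 802 and 498 in control, 824 and 553 in DFO, and 837 and 352 in Dp44mT. These arrays overlapped between all groups. The log2 differences were 0.41 (95% interval -0.41 to 1.23) and 0.47 (-0.36 to 1.29), and the Dp44mT one was -0.21 with no scaling between arrays.

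The smallest p among the EGFR probe sets was on 201984_s_at, at 239 and 225 in control, 324 and 260 in DFO, and 326 and 182 in Dp44mT. After normalization its chelator arrays lay above both controls, whereas the deposited Dp44mT intensities were on both sides of them. Log2 differences of 0.60 (95% interval 0.00 to 1.19, adjusted p = 0.452 in limma) and 0.69 (0.09 to 1.29, adjusted p = 0.187 in limma) were not called. Probe set 201983_s_at read 137 and 129 in control, 270 and 100 in DFO, and 163 and 85.0 in Dp44mT, with log2 differences of 0.49 and 0.34. The remaining EGFR probe sets 210984_x_at, 211551_at and 211607_x_at read between 23.3 and 83.2, with log2 differences between -0.10 and 0.34. Below the limit, 211550_at read between 0.00891 and 3.71.

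A pair of EGFR probe sets behaved differently from the rest. Probe set 1565483_at read 262 and 47.8 in control, 249 and 470 in DFO, and 209 and 396 in Dp44mT. Probe set 1565484_x_at read 266 and 44.1 in control, 225 and 463 in DFO, and 157 and 350 in Dp44mT. On both, the set 2 control was the lowest array and the set 2 chelator arrays the highest, while the 3 arrays of set 1 lay close together. Their log2 differences, 1.71 and 1.67 with DFO and 1.79 and 1.55 with Dp44mT, had 95% intervals that included 0. Within set 1 the differences were -0.14 and -0.28 with DFO and -0.13 and -0.53 with Dp44mT, and within set 2 between 3.56 and 3.71.

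The summed fibroblast and endothelial markers moved with this pattern, and the leukocyte markers did not. The summed deposited intensity of 10 fibroblast markers was 1795 and 1050 in control, 1504 and 2011 in DFO, and 1531 and 1867 in Dp44mT, lowest in the set 2 control and highest in the set 2 chelator arrays, with 8 of the 10 above the test limit. COL1A2 read 265 and 37.2 in control, 227 and 369 in DFO, and 184 and 329 in Dp44mT, and COL3A1, DCN and POSTN were likewise lowest in the set 2 control. Of the 8 tested fibroblast markers, 5 had a log2 difference from control above 0 with DFO and 6 with Dp44mT, so not all went the same way. Defining markers were low, PDGFRB between 7.52 and 22.4 and FAP between 0.549 and 35.6. For 6 endothelial markers the sums were 939 and 496, 984 and 1240, and 819 and 1176 in the same order of groups, mostly from PECAM1 at 313 to 1009, with CDH5 between 0.0187 and 12.6. The 4 matched leukocyte markers summed to 169 and 226 in control, 173 and 164 in DFO, and 229 and 156 in Dp44mT. PTPRC was at 8.87 to 35.5. The part of such RNA in the EGFR and ERBB4 values was not tested.

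**Figure D3:**
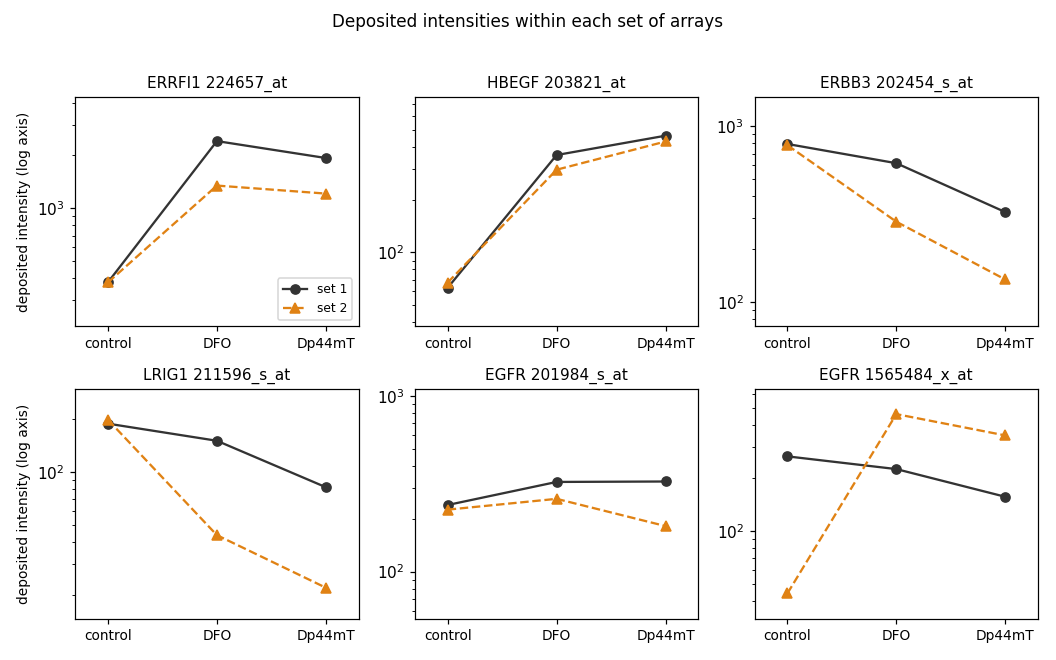
Deposited intensity (vertical log axis) of 6 member probe sets by group, with set 1 as black circles and a solid line and set 2 as orange triangles and a dashed line. ERRFI1 and HBEGF were above control in both sets, ERBB3 202454_s_at and LRIG1 211596_s_at below it with the lowest values in set 2, and EGFR 1565484_x_at ran from 44.1 in control to 463 and 350 with the chelators in set 2 only. The panels show the probe set with the smallest p of ERRFI1, HBEGF, ERBB3, LRIG1 and EGFR, and last the one whose mean chelator difference was furthest apart between the sets.

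For the highest-mean probe sets of EGFR and HBEGF, the genes with the most similar pattern were found by Pearson's r over the 6 arrays. For EGFR 224999_at they were HSP90AB1 (0.995), DSTYK (0.986), OR51B2 (0.986), ACTB (0.985) and SERHL2 (0.983). For HBEGF 38037_at they were ARHGEF7 (0.998), UNC5B (0.996), TMEM127 (0.995), MXD1 (0.994) and KHDRBS3 (0.993). Among the latter, UNC5B had log2 differences of 1.68 with DFO and 2.41 with Dp44mT, close to those of HBEGF 38037_at, and TMEM127 had 0.28 and 0.38. The 6 points share their normalization, and the highest of many r values are high by choice, so these are descriptions only.

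The rest of the pathway was described from lists with 1 probe set per gene, the one with the highest mean. Among all 16868 genes taken this way, 0.753% were called higher and 0.0415% lower with DFO, and 1.36% higher and 0.700% lower with Dp44mT. No gene of any pathway list was called lower with either chelator. Of the 5 tested genes for other ligands, 0 were called, and the median log2 difference was -0.26 with DFO and -0.55 with Dp44mT. The smallest p was on NRG4, a neuregulin, at 44.2 and 72.1 in control, 38.3 and 22.6 in DFO, and 28.8 and 14.8 in Dp44mT, with log2 differences of -0.49 and -0.71. NRG2 read 595 and 125 in control, 631 and 877 in DFO, and 432 and 959 in Dp44mT, the same array pattern as EGFR 1565483_at.

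Of 7 sheddases and regulators, 0 were called, with medians of 0.25 and 0.40. RHBDF2, a rhomboid-like cofactor of ADAM17, had the smallest p, reading 258 and 350 in control, 194 and 87.3 in DFO, and 119 and 51.9 in Dp44mT, with log2 differences of -0.82 and -1.23 (adjusted p = 0.0965 in limma). ADAM17, the main protease that releases these ligands, had differences of 0.14 and 0.40. Of 8 adaptors, 0 were called, with medians of 0.10 and 0.26. GRB2 had the smallest p with DFO, at 0.38, and GAB1 with Dp44mT, at 1.08 (adjusted p = 0.208 in limma).

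In the RAS to ERK route, 7 of the 12 listed genes were matched and tested, with 0 called with DFO and 1 with Dp44mT. The medians were -0.17 and -0.14. MAP2K1, which encodes the kinase MEK1 that activates ERK, rose 2.52-fold with Dp44mT, a log2 difference of 1.33 (SE 0.18, adjusted p = 0.0391 in limma), and had a difference of 1.26 with DFO (adjusted p = 0.0725 in limma). Its deposited intensities were 1009 and 1174 in control, 2848 and 1372 in DFO, and 2546 and 1154 in Dp44mT, so the set 2 Dp44mT array lay between the controls. With no scaling between arrays the Dp44mT difference was 0.65 and was not called. In the PI3K route 5 of 9 listed genes were matched and 0 were called, with medians of 0.03 and 0.08. AKT1, a kinase of this route, had the smallest p in both comparisons, with log2 differences of -0.34 and -0.43.

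Receptor turnover genes and inhibitors, 15 tested of 16 listed, also gave 0 calls, with medians of 0.04 and 0.02. SOCS4, which belongs to a family of proteins that direct signalling proteins to degradation, had the smallest p. It read 697 and 840 in control, 548 and 181 in DFO, and 223 and 78.6 in Dp44mT, with log2 differences of -0.91 and -1.78 (adjusted p = 0.0729 in limma). LRIG2 and LRIG3, relatives of LRIG1, had differences of 0.04 and -0.27 with DFO and 0.19 and -0.61 with Dp44mT.

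Feedback on ERK gave 1 higher call of 12 tested genes with DFO and 2 with Dp44mT, against 0.753% and 1.36% of all genes. DUSP5, a nuclear phosphatase that inactivates ERK, read 115 and 83.2 in control, 1094 and 603 in DFO, and 1259 and 591 in Dp44mT. It rose 8.42-fold with DFO and 11.4-fold with Dp44mT, log2 differences of 3.07 and 3.51 (SE 0.21, adjusted p = 0.0151 and 0.00974 in limma). SPRY4, a Sprouty inhibitor of the RAS to ERK route, read 189 and 153 in control, 448 and 263 in DFO, and 474 and 251 in Dp44mT. SPRY4 rose 2.97-fold with Dp44mT, with a log2 difference of 1.57 (adjusted p = 0.0342 in limma) and one of 1.20 with DFO (adjusted p = 0.0957 in limma). Its Dp44mT difference was 1.33 with array medians subtracted and 0.96 with no scaling between arrays, not called in either. The list's medians were 0.59 and 0.39, and with no scaling between arrays they were 0.32 and -0.07 with 0 calls. SPRY2 and DUSP6, a cytoplasmic ERK phosphatase, were not called, with log2 differences of -0.32 and 0.62 with DFO and -0.40 and 0.19 with Dp44mT.

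ERK transcription targets gave the most calls, 3 of 14 with DFO and 4 with Dp44mT, with medians of 0.75 and 0.89, again against 0.753% and 1.36% of all genes. FOS, an AP-1 subunit, read 8.67 and 0.00661 in control, 568 and 269 in DFO, and 665 and 232 in Dp44mT. Its log2 differences of 4.37 and 4.74 passed, but their size depends on the pseudocount because the controls were near 0: they ran from 2.74 and 3.08 with a pseudocount of 64 to 7.05 and 7.43 with one of 1, where neither was called (adjusted p = 0.0832 and 0.0510 in limma). EGR1, an early growth response factor, read 51.6 and 67.7 in control, 685 and 304 in DFO, and 746 and 430 in Dp44mT, and rose 7.03-fold and 11.2-fold (adjusted p = 0.0177 and 0.00974 in limma). FOSL1, another AP-1 subunit, rose 3.22-fold with DFO and 6.07-fold with Dp44mT (adjusted p = 0.0497 and 0.0142 in limma). Its call with DFO held under 3 of 14 alternatives, with log2 differences from 1.33 to 1.85, and that with Dp44mT under 9 of 14. ZFP36, an RNA-binding protein that promotes mRNA decay, rose 3.02-fold with Dp44mT and stood at adjusted p = 0.0523 in limma with DFO. The log2 difference of ZFP36 with Dp44mT was 1.36 with array medians subtracted and 0.99 with no scaling between arrays, not called in either.

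Other genes of that list did not pass. MYC had log2 differences of -0.04 and 0.09, and ETV4, an ETS factor, -0.56 and -0.54. With no scaling between arrays 1 gene of the list, FOS, was called with each chelator, while the log2 differences of EGR1 were 2.66 and 2.96 and those of FOSL1 were 1.47 and 2.03. These lists were drawn up with earlier results of the same arrays known, so their calls are not independent evidence of a direction.

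**Figure D4:**
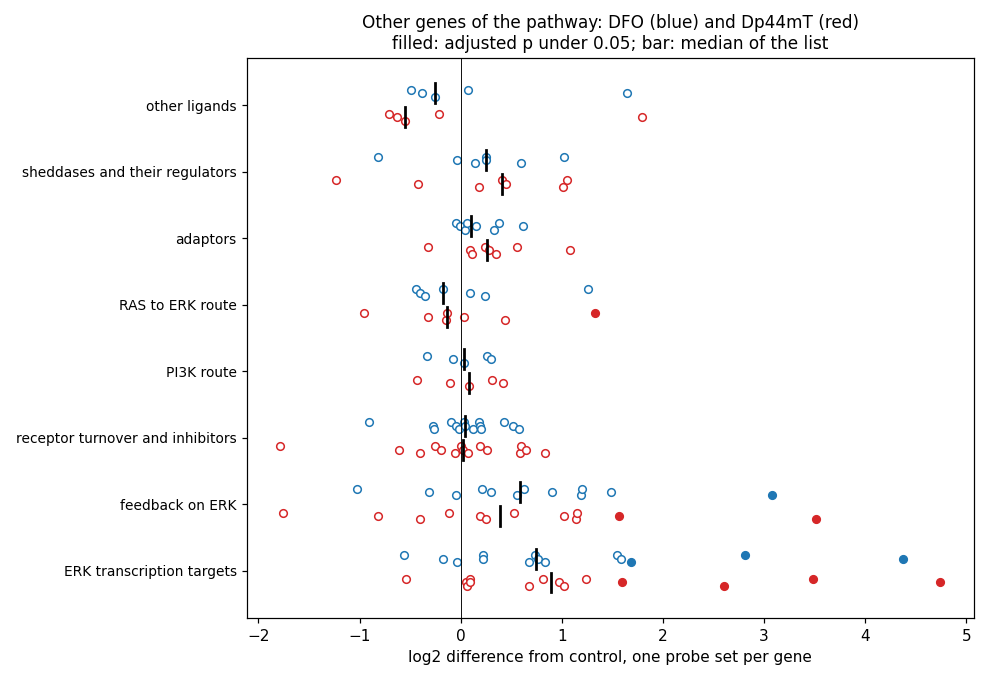
Log2 difference from control (horizontal axis) of each tested gene in 8 pathway lists, DFO in blue and Dp44mT in red, filled where the adjusted p is under 0.05, with a bar at the list's median. Filled points lie in the lists for the RAS to ERK route, feedback on ERK and ERK transcription targets, furthest right FOS at 4.37 and 4.74, and all lie above 0.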

How the data were processed

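RNA of 6 DMS-53 samples (2 each of control, DFO and Dp44mT) was measured on Affymetrix U133 Plus 2.0 arrays. The authors deposited one linear intensity per probe set and array, and the submitters' processing notes name Affymetrix Expression Console 1.1. The summarization and scaling are not given in the sources used here. Members were matched through the platform's annotation, which gives a single symbol for 41097 probe sets, several for 1801 and none for 11777. Genes without a single-symbol probe set were not analysed here.

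The values were taken as log2(intensity + 16) and quantile normalized, because the deposited array medians differed. Of these, 40950 probe sets passed the 25th percentile filter and were not Affymetrix controls. Group means were compared in limma 3.58.1 (R 4.3.3) with all 3 groups in the fit, 3 residual and 2.53 prior degrees of freedom, two-sided, with Benjamini-Hochberg adjustment within each of 3 contrasts. The script was tested on simulated data. Few arrays make for wide intervals, with a median half-width (95%) of 0.68 log2 units. No exact permutation test was used, because 2 arrays against 2 cannot give a p below 0.333. Set numbers were not treated as pairing the arrays, since the deviations of the controls ran against those of the chelator arrays (correlations of -0.23 with DFO and -0.33 with Dp44mT, and 0.83 between the chelators).

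All member probe sets are described. Of each pathway list, called genes were named, or else the one with the smallest p; genes named beyond this rule (NRG2, ADAM17, LRIG2, LRIG3, SPRY2, DUSP6, MYC, ETV4) were chosen after their values were seen. Members, lists and the normalization were chosen with earlier results of these data known. Alternatives were other pseudocounts, scalings, filters, probe set summaries, variance priors, a replicate block and left-out arrays.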

Additional observations from a re-analysis of the deposited data

Results flagged for a closer look

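The chelator differences were set side by side between the sets of arrays, with DFO and Dp44mT averaged. On EGFR 1565483_at the mean log2 difference from control was 3.77 larger in set 2 than in set 1, and on EGFR 1565484_x_at it was 4.03 larger. On both, the chelator arrays lay below the control in set 1 and above it in set 2. EGFR 211551_at had a set 2 minus set 1 difference of -0.29, with chelator values above the control in set 1 and below it in set 2. There the sets differed mainly in the control. Its normalized log2 levels were 6.13 and 6.44 in control, 6.21 and 6.22 in DFO, and 6.32 and 6.34 in Dp44mT. For ERBB4 233494_at the difference was 2.95 and for TGFA 205015_s_at it was -0.85, and both probe sets lie below the limit for testing. Each set holds 1 control array, so these differences between the sets were not tested. Set numbers were not treated as pairing the arrays, and each such difference includes the gap between the controls.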

How the results depend on the processing

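The number of member probe sets called higher with DFO was 1, and it became 0 with no scaling between arrays, 0 with only the groups compared in the fit and 0 with any array left out (range 0 to 0), and 2 with array medians subtracted, with limma's trended and robust prior and without both set 2 chelator arrays. With Dp44mT it was 2, and it became 0 with no scaling and 0 to 2 with single arrays left out, while a pseudocount of 64, subtracted medians, the median filter, the trended prior and the fit without both set 2 chelator arrays each gave 3. A lone array left in a group was assumed to vary like the other groups. Without both set 2 chelator arrays, the within-group scatter came from the 2 control arrays alone, so counts from that fit cannot be set beside the others. The count lower with Dp44mT, 0 at first, was 1 with a pseudocount of 64 (ERBB3 202454_s_at), 2 with the trended prior and 1 without both set 2 chelator arrays (LRIG1 211596_s_at). None was called lower with DFO, or in Dp44mT against DFO, under any alternative run. The cause of the differences between settings was not tested. Fits with arrays left out also have fewer degrees of freedom.

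The replicate block on the set number gave 1 higher call with DFO and 3 with Dp44mT, where HBEGF 38037_at was added. Over all tested probe sets it gave 193 higher and 15 lower calls with DFO, and 594 and 651 with Dp44mT. A crossed pairing, added after seeing the data, gave 5 higher calls with DFO, and 5 higher and 3 lower with Dp44mT. The higher ones were EGFR 1565483_at and 1565484_x_at, HBEGF 203821_at and 38037_at, and ERRFI1 224657_at with each chelator. The lower ones were ERBB3 202454_s_at and 226213_at and LRIG1 211596_s_at. Over all 40950 tested probe sets the crossed pairing gave 660 higher and 149 lower calls with DFO, and 2330 and 3466 with Dp44mT. A block on the chelator arrays alone, also added then, gave 0 calls in Dp44mT against DFO. At an unadjusted p under 0.05 in limma, 8 of 24 tested members and 8939 of all 40950 tested probe sets then differed. On the chelator arrays alone without the block these were 0 of 24 and 531. In the main fit with all 3 groups they were 1 of 23 and 1347.

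The log2 difference changed sign under at least 1 alternative for 32 of the 69 differences (78 values). None of the 78 was called, either at first or under the alternative, and the cause was not tested. With no scaling between arrays the DFO differences became -0.24 for HBEGF 244857_at, -0.085 for EREG 1569583_at, -0.0043 for TGFA 205016_at and -0.33 for LRIG1 238339_x_at. The Dp44mT differences became -0.15 for EGFR 201983_s_at, -0.29 for EGFR 211551_at, -0.21 for EGFR 224999_at, -0.12 for ERBB3 215638_at, -0.0031 for TGFA 211258_s_at and -0.082 for LRIG1 238339_x_at. Dp44mT against DFO became -0.24 for EGFR 1565483_at and 201984_s_at, -0.012 for 211551_at, -0.30 for 224999_at, -0.11 for ERBB3 1563253_s_at, -0.055 for TGFA 211258_s_at and -0.23 for ERRFI1 224657_at.

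With array medians subtracted, the DFO differences were -0.014 for HBEGF 244857_at and -0.10 for LRIG1 238339_x_at, the Dp44mT ones 0.012 for EGFR 211607_x_at and 0.050 for EREG 1569583_at, and those between the chelators -0.092 for EGFR 1565483_at, -0.090 for 201984_s_at, -0.16 for 224999_at and -0.088 for ERRFI1 224657_at. With a pseudocount of 1, DFO gave -0.0013 for HBEGF 244857_at and -0.0028 for LRIG1 238339_x_at, which was -0.00013 with only the groups compared. Averaging a gene's probe sets gave, with DFO, 0.60 for EGFR (against 211551_at), -0.11 for ERBB3 (215638_at) and -0.071 for LRIG1 (238339_x_at). With Dp44mT it gave 0.56 for EGFR (211607_x_at), -0.20 for ERBB3 (215638_at), 0.032 for TGFA (205016_at) and 0.081 for LRIG1 (211596_s_at). Between the chelators it gave -0.037 for EGFR (1565483_at, 201984_s_at, 211551_at and 224999_at), -0.092 for ERBB3 (1563253_s_at), -0.096 for TGFA (211258_s_at) and 0.15 for LRIG1 (211596_s_at). Without both set 2 chelator arrays, DFO gave -0.30 for HBEGF 244857_at and -0.41 for LRIG1 238339_x_at, Dp44mT -0.091 for EGFR 210984_x_at and 0.14 for EREG 1569583_at, and their difference -0.056 for ERBB4 233498_at and -0.064 for ERRFI1 224657_at.

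With single arrays left out, the DFO differences ran from -0.22 to 0.081 for EGFR 211551_at, -0.29 to 0.29 for HBEGF 244857_at, -0.017 to 0.20 for EREG 1569583_at, -0.12 to 0.64 for TGFA 205016_at and -0.39 to 0.37 for LRIG1 238339_x_at. The Dp44mT ones ran from -0.089 to 0.69 for EGFR 210984_x_at, -0.11 to 0.19 for 211551_at, -0.31 to 0.11 for 211607_x_at and -0.27 to 0.14 for EREG 1569583_at. Between the chelators, EGFR ran from -0.85 to 0.99 on 1565483_at, -1.18 to 0.89 on 1565484_x_at, -0.48 to 0.16 on 201983_s_at, -0.16 to 0.35 on 201984_s_at, -0.44 to 0.35 on 210984_x_at and -0.12 to 0.23 on 224999_at. The ranges were -0.20 to 0.029 for ERBB2 216836_s_at, -0.073 to 0.35 for ERBB3 1563253_s_at, -0.30 to 0.18 for ERBB3 215638_at, -0.038 to 0.77 for ERBB4 233498_at, -0.36 to 0.044 for EREG 1569583_at, -0.11 to 0.40 for TGFA 211258_s_at and -0.13 to 0.26 for ERRFI1 224657_at. The tested EREG probe set, at a mean log2 level of 5.73, was close to the test limit of 5.55.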

Other observations

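CCND1, which encodes cyclin D1 and stands in the list of ERK targets, had a different order of groups from the other genes of that list described above. Its deposited intensities were 339 and 357 in control, 971 and 716 in DFO, and 371 and 322 in Dp44mT. The log2 difference of Dp44mT from DFO was -0.87 (SE 0.33), not called at adjusted p = 0.969 in limma, and the differences from control were 1.54 with DFO and 0.68 with Dp44mT, also without a call. CCND1 was chosen after its values were seen.

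Among the neuroendocrine markers used to check the cell line, 1 was called higher with DFO, and 1 higher and 2 lower with Dp44mT. INSM1, a neuroendocrine transcription factor, read 5061 and 7075 in control, 1700 and 790 in DFO, and 674 and 240 in Dp44mT, and fell 10.3-fold with Dp44mT (adjusted p = 0.0154 in limma). NKX2-1, a lung transcription factor, fell 5.09-fold with Dp44mT (adjusted p = 0.0249 in limma). ENO2, neuron-specific enolase and a glycolytic enzyme, rose 3.35-fold with DFO and 4.09-fold with Dp44mT (adjusted p = 0.0427 and 0.0217 in limma).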
